A study of Mus musculus with 23 samples.

Results

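Stem cell transcription factors are described here: 9 genes, Mecom, Hlf, Mllt3, Gata2, Meis1, Tal1, Lyl1, Runx1 and Erg, of the 32285 genes in the feature tables. They were chosen by name, as regulators known for their roles in blood stem cells, with earlier results of these data known. Counts of members called are therefore a description beside the share of all genes. Their gene rows were taken from all 11 gene-expression matrices. Each symbol belonged to 1 gene row, and all 9 genes passed the filter on low counts in every comparison. The series compares loss of Jarid2, an accessory subunit of Polycomb repressive complex 2, with loss of Ezh2, its methyltransferase, in mouse bone marrow cells sorted as c-Kit positive, Sca1 positive and negative for lineage markers (KSL cells), a gate that holds blood stem cells and early progenitors. In the baseline experiment, KSL cells came from untransplanted mice 2 months old, with 1 male library (replicate 1) and 1 female library (replicate 2) per genotype: Control, Ezh2 KO or Jarid2 KO. The same baseline cells carried barcoded antibodies, among them CD150, CD48 and CD201. In the transplant experiment, 500000 CD45.2 donor marrow cells were given with CD45.1 competitor cells to lethally irradiated recipients, and donor KSL cells were sorted 18 weeks later from 1 Control, 2 Ezh2 KO and 2 Jarid2 KO samples.

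All samples, Controls included, are labelled Mx1-Cre, a Cre driven by an interferon-responsive promoter that acts in blood cells and in other tissues. The labels do not give how Cre was induced, which exons were removed or whether the Controls carry floxed alleles, and they state no treatment. They do not say how many mice gave a library, so the spread between libraries may be partly technical. Loss of an allele was not checked by these data: the counted tags come from the 3′ ends of transcripts, which may lie outside the deletion. Ezh2 RNA was lower in Ezh2 KO than in Control by -0.33 (log2 fold change; false discovery rate, FDR, 0.0599, edgeR) at baseline and by -2.18 (FDR 0.000729) after transplantation, and Jarid2 RNA in Jarid2 KO stood 0.46 (FDR 0.0914) and 0.53 (FDR 0.195) above Control.

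As background, blood stem cells are kept by a network of factors that bind one another's enhancers. Gata2 and its partners Tal1 and Lyl1, related helix-loop-helix proteins that read E-box motifs, act with Runx1, a Runt-domain factor, and with Erg, an ETS factor, on shared target genes. Mecom (Evi1), Hlf and Meis1 are known for supporting stem cell self-renewal, and Mllt3 (AF9), a reader of acylated histones in transcription elongation complexes, for maintaining stem cells. CD150 and CD201 mark stem cells in mouse marrow, and CD48 marks progenitors that are leaving that state.

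Stretches of promoter are shown for 5 members, since the members parted into sets along the surface markers: Gata2 and Tal1 moved most with CD150, Mecom and Hlf moved with CD48 and CD201 but parted along CD150, and Runx1 hardly moved. Each is the 250 bases before an annotated start, from RefSeq (GRCm38.p6), written 5′ to 3′ on the gene's strand. Capitals mark matches, on either strand, to 4 motifs. The GATA motif was taken as AGATAA, with TGATAA as its other accepted form. The E-box motif, read by helix-loop-helix proteins, was taken as CANNTG. The ETS motif was taken as AGGAAG, the letters read by factors such as Erg, and the RUNX motif as TGTGGT. No 2 matches overlapped in these windows.
Gata2 (chr6:88193641-88193890, plus strand): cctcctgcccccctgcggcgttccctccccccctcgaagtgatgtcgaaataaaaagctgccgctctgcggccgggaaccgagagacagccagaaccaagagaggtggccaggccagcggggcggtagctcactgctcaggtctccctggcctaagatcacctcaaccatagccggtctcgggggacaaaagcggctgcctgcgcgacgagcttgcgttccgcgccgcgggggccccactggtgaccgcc
Tal1 (chr4:115056176-115056425, plus strand): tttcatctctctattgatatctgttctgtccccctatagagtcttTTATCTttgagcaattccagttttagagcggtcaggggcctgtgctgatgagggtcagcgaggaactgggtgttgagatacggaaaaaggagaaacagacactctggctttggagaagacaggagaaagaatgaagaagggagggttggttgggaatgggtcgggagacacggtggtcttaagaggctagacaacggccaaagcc
Mecom (chr3:30509760-30510009, minus strand): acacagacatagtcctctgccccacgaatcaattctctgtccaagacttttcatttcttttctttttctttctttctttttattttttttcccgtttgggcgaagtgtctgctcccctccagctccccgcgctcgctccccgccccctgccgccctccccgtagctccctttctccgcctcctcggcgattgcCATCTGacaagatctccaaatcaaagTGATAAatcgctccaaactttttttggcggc
Hlf (chr11:90390918-90391167, minus strand): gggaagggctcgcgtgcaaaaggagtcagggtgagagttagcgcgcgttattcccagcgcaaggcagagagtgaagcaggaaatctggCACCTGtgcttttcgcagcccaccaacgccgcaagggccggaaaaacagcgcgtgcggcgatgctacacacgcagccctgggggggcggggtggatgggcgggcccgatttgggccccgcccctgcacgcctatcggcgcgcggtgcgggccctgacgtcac
Runx1 (chr16:92826075-92826324, minus strand): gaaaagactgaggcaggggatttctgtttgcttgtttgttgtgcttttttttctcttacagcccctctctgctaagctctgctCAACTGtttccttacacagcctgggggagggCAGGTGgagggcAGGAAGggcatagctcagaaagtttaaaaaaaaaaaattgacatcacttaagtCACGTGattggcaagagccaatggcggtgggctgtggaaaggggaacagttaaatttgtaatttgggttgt

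Among 32851 mouse promoter windows of the same length, 16.6% held a GATA match, 66.2% an E-box, 29.5% the ETS letters and 14.0% the RUNX letters. The Gata2 window held none of the 4 motifs, and the Tal1 window held 1 GATA match. The Mecom window held 1 GATA match and 1 E-box, the Hlf window 1 E-box, and the Runx1 window 3 E-boxes and 1 ETS match. For Gata2, Tal1, Mecom and Runx1 the windows shown are those of 1 of 2 annotated starts, and the windows of their other starts held no match to any of the 4 motifs. A match describes letters only and is not a measured binding site.

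Of 97066 deposited barcodes, 73310 cells were kept, 46839 at baseline and 26471 after transplantation. Kept libraries held 83956300 to 126346471 unique molecular identifiers (UMIs, counted transcripts) at baseline and 67533820 to 111346978 after transplantation, with 10751 to 12665 and 11760 to 17610 UMIs in the median cell. Levels are given as UMIs per 1000000 UMIs of the summed cells (CPM), and are compared within a gene and not between genes. Counting alone gave a gene at 10 CPM a relative SD of 2.81% to 3.85%. Any 2 libraries shared at most 0.392% of the kept barcodes of the smaller one. The gate markers Kit, Ly6a, Cd34 and Ptprc were detected in all 11 libraries (summed 617 to 832 CPM), while 6 lineage genes summed to 11.7 to 29.1 CPM. Transplant libraries stood apart from baseline: 25.7% to 43.4% of their barcodes were over the mitochondrial limit, against 2.82% to 5.82% at baseline, and 7 myeloid markers, such as Mpo and Elane, summed to 8135 to 16840.3 CPM, against 438 to 821 CPM. Mast cell and basophil markers summed to 180.3 to 252 CPM after transplantation and 14.6 to 34.9 at baseline, erythroid markers to 186 to 412 and 666 to 1137, and stem markers to 302 to 493 and 554 to 803. Levels also moved with gene length between the experiments, so these sums describe the libraries and are not compared as cell content. Sex differed between the transplant groups: cells with Xist and no Y-linked UMI made up 0.0163% and 0.0511% of the Ezh2 KO libraries, 59.5% of the Control and 48.3% and 49.9% of the Jarid2 KO libraries. Cells with Y-linked UMIs and no Xist numbered 800 in that Control and 1391 and 1618 in the Jarid2 KO libraries. Each of these libraries thus held cells of both sexes, and so of more than 1 animal.

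The first question was whether the level of each factor in baseline KSL cells differed with genotype. Between the knockouts, 5 of the 9 genes were higher in Jarid2 KO than in Ezh2 KO (FDR at most 0.05, edgeR), where 6.12% of all genes tested were called and 1.58% were called higher: Hlf, Tal1, Mecom, Mllt3 and Meis1. The differences ran from 0.28 to 0.52 on the log2 scale. Against Control, no member passed the threshold in either knockout, where 3.61% of all genes were called in Ezh2 KO and 0.0275% in Jarid2 KO. At an unadjusted p under 0.05 there were 5 members in Ezh2 KO and 4 in Jarid2 KO, against 23.4% and 11.5% of all genes, and DESeq2 called 5 and 2, against 12.5% and 3.11% of all genes. The comparisons with Control share the 2 Control libraries, so their values are not independent of each other.

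Hlf, a leucine-zipper factor of the PAR family, stood (replicate 1, then 2) at 510 and 493 CPM for Control, 406 and 440.1 for Ezh2 KO, and 602 and 626 for Jarid2 KO. The 3 genotypes did not overlap, with Control between the knockouts. The difference of Jarid2 KO from Ezh2 KO was 0.52 (log2, SE 0.05, FDR 0.0171), made up of -0.20 (SE 0.05, FDR 0.0908) in Ezh2 KO and 0.31 (SE 0.05, FDR 0.171) in Jarid2 KO against Control. Mecom, a zinc-finger regulator, stood at 592 and 614 CPM for Control, 455 and 549 for Ezh2 KO, and 658 and 669 for Jarid2 KO, in the same order and again without overlap. Its difference between the knockouts was 0.39 (SE 0.06, FDR 0.0383). Mllt3 stood at 175 and 174 CPM for Control, 166 and 187 for Ezh2 KO, and 209 and 225 for Jarid2 KO. Here the Ezh2 KO libraries lay on either side of Control, and only the Jarid2 KO libraries stood apart. The difference between the knockouts was 0.28 (SE 0.05, FDR 0.0453), beside 0.34 (SE 0.05, FDR 0.163) in Jarid2 KO and 0.06 (FDR 0.538) in Ezh2 KO against Control.

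Meis1, a homeobox factor, stood at 633 and 677 CPM for Control, 504 and 573 for Ezh2 KO, and 655 and 673 for Jarid2 KO. Tal1 stood at 65.4 and 70.6 CPM for Control, 47.6 and 57.6 for Ezh2 KO, and 69.1 and 71.1 for Jarid2 KO. For both genes Ezh2 KO lay below the other 2 groups, which overlapped for Meis1 and for Tal1. The knockouts differed by 0.28 (SE 0.05, FDR 0.0393) for Meis1 and by 0.40 (SE 0.06, FDR 0.0306) for Tal1. Against Control, Ezh2 KO differed by -0.24 (SE 0.05, FDR 0.0607) for Meis1 and by -0.33 (SE 0.06, FDR 0.0501) for Tal1, just over the threshold. Gata2, a zinc-finger factor that binds GATA motifs, stood at 61.7 and 70.4 CPM for Control, 49.1 and 59.3 for Ezh2 KO, and 56.7 and 60.4 for Jarid2 KO. Both knockouts lay below Control and overlapped each other, with differences of -0.24 (FDR 0.0639) and -0.15 (FDR 0.382) from Control and of 0.09 (95% interval -0.03 to 0.22) between them.

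The last 3 members were not called between any 2 genotypes at baseline. Lyl1 ran from 69.6 to 81 CPM over the 6 libraries, Runx1 from 557 to 667 and Erg from 213 to 254. Between the knockouts the 95% intervals of the log2 difference were -0.19 to 0.07 for Lyl1, -0.21 to 0.07 for Runx1 and -0.23 to 0.04 for Erg, which hold 0 and leave out a change of 0.28 as seen for Meis1 and Mllt3. Erg was lower in the female library than in the male library of each genotype, and Runx1 was higher. For Runx1 the 2 Ezh2 KO libraries were nearly level (mean 585 CPM, SD 0.791). The calls between the knockouts were lost without either Jarid2 KO library and mostly lost without Ezh2 KO replicate 1. Fewer of all genes were called in these runs too, and the 5 differences kept their signs. Without Jarid2 KO replicate 1 and then 2 they were 0.54 and 0.50 for Hlf and 0.33 and 0.45 for Mecom. They were 0.30 and 0.26 for Mllt3, 0.24 and 0.33 for Meis1, and 0.33 and 0.47 for Tal1. Without the sex term, where 0.445% of all genes were called, Hlf alone kept its call. The other 4 then had FDR of 0.132 to 0.166, with differences of 0.38 for Mecom, 0.28 for Mllt3, 0.28 for Meis1 and 0.39 for Tal1.

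**Figure D1:**
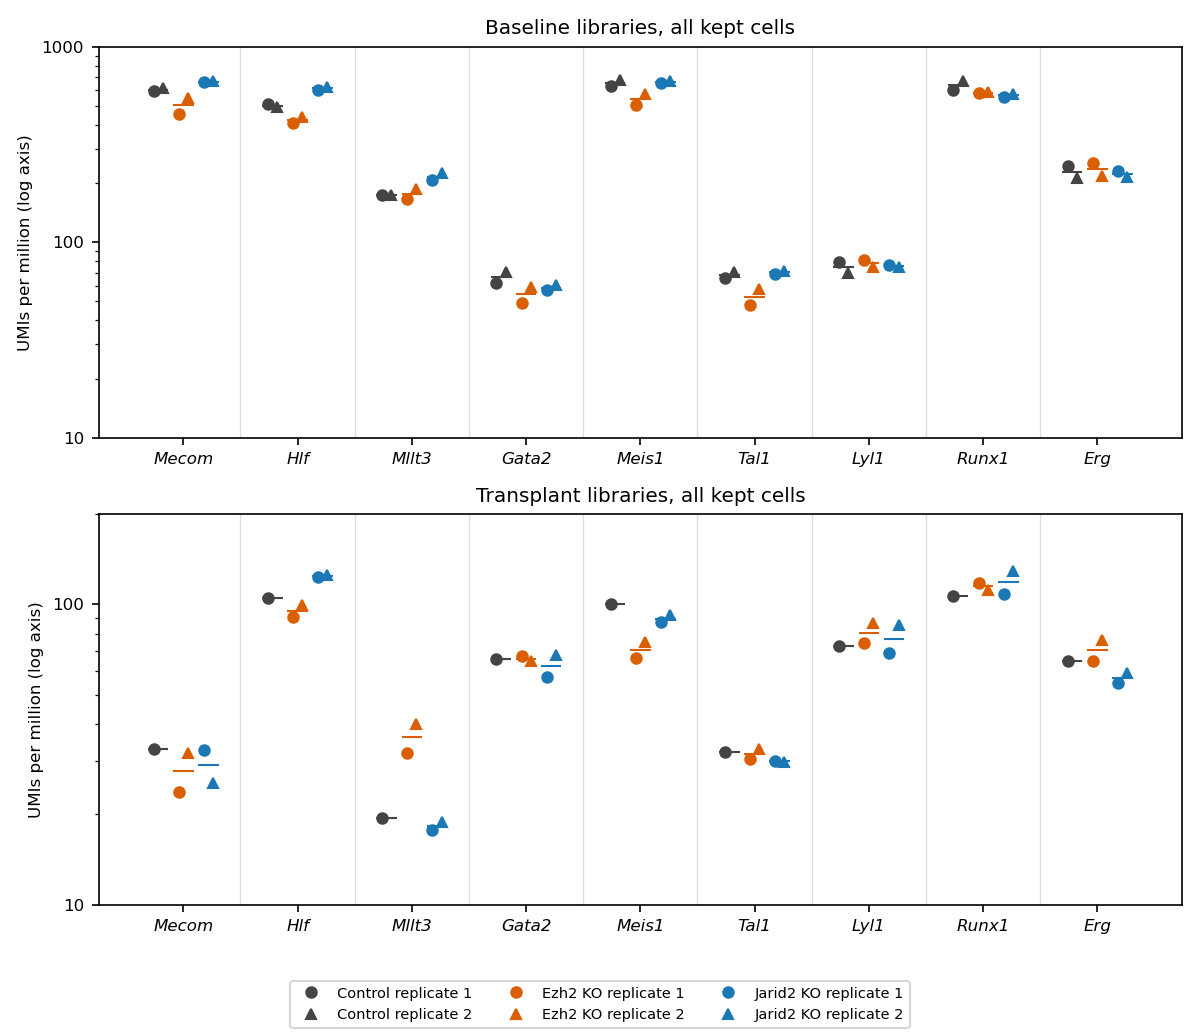
Levels of the 9 genes in CPM (log axis) in each library, with baseline above and transplant below; circles are replicate 1, triangles replicate 2, and bars are group means. Hlf, Mecom and Mllt3 lie highest in Jarid2 KO at baseline, and Mllt3 lies highest in Ezh2 KO after transplantation (32.1 and 40.0 CPM against 17.7 to 19.4).

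Marker sums and CD48 staining of the baseline libraries are given beside these values, without a test. The summed CPM of 10 lymphoid markers was 2066 and 1013 for Control, 3447 and 2057 for Ezh2 KO, and 1682 and 1703 for Jarid2 KO, with all 10 detected in each library. The summed CPM of 7 cell-cycle genes was 946 and 836, 1384 and 1121, and 893 and 917 in the same order, highest in both Ezh2 KO libraries. The 9 stem markers summed to 733 and 611, 554 and 617, and 803 and 638 CPM, with overlap between Control and each knockout. Both Jarid2 KO sums lay above both Ezh2 KO sums, the same direction as the members called between the knockouts. Median CD48 antibody UMIs per cell were 839 and 623 for Control, 1519 and 1148 for Ezh2 KO, and 540.5 and 418 for Jarid2 KO. Fewer cells with a transcript and less transcript per cell cannot be told apart in such sums.

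Of 30 other blood transcription factors and partners, 8 were called between the knockouts, all 8 higher in Jarid2 KO. They included Mycn (0.66, log2, SE 0.05, FDR 0.0122), the stem cell regulator Prdm16 (0.63, SE 0.05, FDR 0.0137) and Gata3 (1.02, SE 0.11, FDR 0.0198). The median difference of the 30 was 0.23, beside 0.28 for the 9 members and 0.01 for all genes tested. Against Control, Ezh2 KO had 2 of the 30 lower, among them Prdm16 (-0.32, FDR 0.0483), and Jarid2 KO had 1 higher, Mycn (0.86, FDR 0.0391).

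The second question was how the members are spread over surface phenotype. In each baseline library cells were ranked by raw antibody UMIs, split into 4 bins of like size and summed, and the highest and lowest bins (above the 75th and up to the 25th percentile) were compared as pairs over the 6 libraries of all genotypes. The members fell into 2 sets: Mecom, Hlf, Mllt3, Gata2, Meis1 and Tal1 fell with CD48 and rose with CD201, while the differences of Lyl1, Runx1 and Erg along any of the 3 antibodies were at most 0.18 in size on the log2 scale. Gene expression as a whole moves along these antibodies, so a call is common: 47.7% of all genes tested were called for CD150 (23.4% higher, 24.3% lower), 72.1% for CD48 (36.5% lower) and 56.3% for CD201 (28.8% higher, 27.5% lower). The members' median log2 differences were 0.47, -1.16 and 1.03, beside -0.01, -0.03 and 0.01 for all genes.

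Along CD48, 6 members fell from the lowest to the highest bin, with log2 changes from -1.07 to -1.73. Mecom had a median of 1104 CPM (939 to 1135) in the lowest bin and 344 (266 to 386) in the highest, a change of -1.57 (SE 0.07, FDR 1.21e-07). Hlf went from 871 CPM (802 to 933) to 257 (208 to 342), a change of -1.60 (SE 0.06, FDR 6.87e-08), and Mllt3 from 377 (333 to 449) to 104 (77.5 to 131), a change of -1.73 (SE 0.11, FDR 9.09e-07). No library of the highest bin reached the range of the lowest for these 3 genes, and each fell at every step from bin to bin in all 6 libraries. Meis1 went from 961 CPM (877 to 998) to 422 (356 to 478), Gata2 from 109 (95.9 to 119.8) to 38.8 (28.5 to 51.4) and Tal1 from 106 (85.3 to 113) to 41.8 (33.5 to 50.8). Their changes were -1.07, -1.36 and -1.16, with FDR of 7.70e-06 or lower, and they fell at every step in 5 of 6 libraries. Lyl1 stood at 84.2 CPM in the lowest and 70.8 in the highest bin, Runx1 at 627 and 591 and Erg at 246 and 220.5 (medians), with tested changes of -0.08, 0.06 and -0.02 that did not pass the threshold (FDR 0.107 to 0.755). With genes of at least 10 CPM alone, Lyl1 (-0.18, FDR 0.00351) and Erg (-0.11, FDR 0.0471) were called. Lyl1 was also called with doublets kept (-0.10, FDR 0.0363), and Runx1 among Control libraries only (0.17, FDR 0.0283).

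The fitted changes use TMM-scaled sums and can differ in size from the ratio of the medians in CPM, and in sign for small changes (here Runx1, and further on Hlf along CD150, Erg along CD201 and Erg between the CD150 and CD48 corners). Cells rich in CD48 also held more RNA, with medians of 15199 to 19458 UMIs in the highest bin against 8710 to 10695 in the lowest. Marker lists moved as well: the cell-cycle list went from a median of 309.7 to 1617 CPM, the lymphoid list from 416 to 2101, the myeloid list from 331 to 820.2 and the mast cell and basophil list from 2.77 to 31.4, while the stem list went from 1271 to 327, the erythroid list from 910.2 to 425 and the megakaryocyte list from 122 to 59.9. Their part in the changes along CD48 was not tested.

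**Figure D2:**
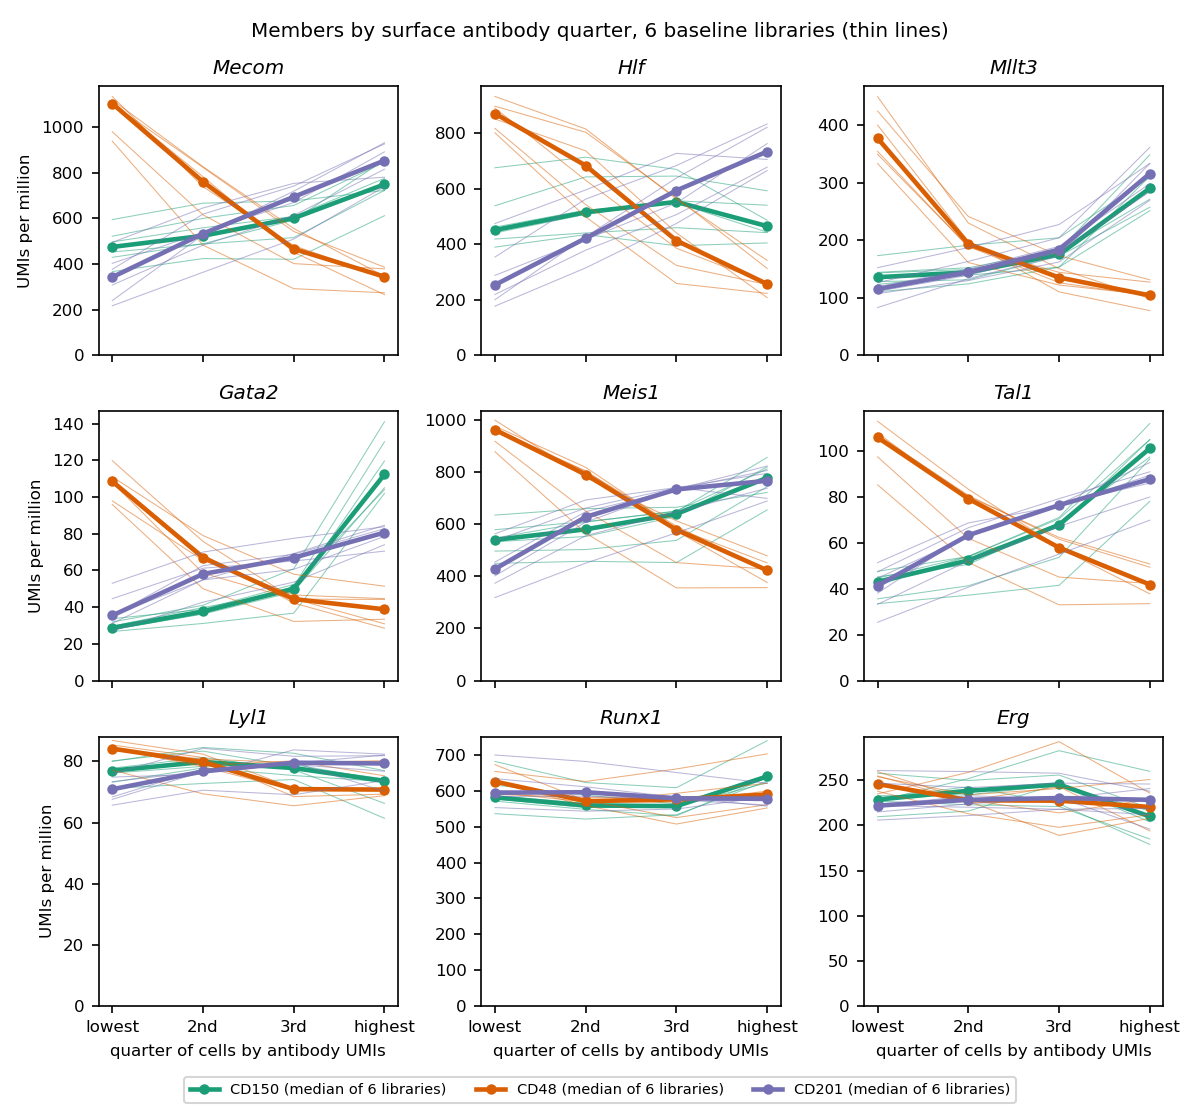
Level of each gene (CPM) in 4 bins of cells ranked by CD150, CD48 or CD201 antibody UMIs; thin lines are the 6 baseline libraries and thick lines their medians. Hlf falls along CD48 from 871 to 257 CPM and climbs along CD201 from 253 to 735, but is at 451 and 465 CPM at the ends of CD150, while Gata2 is at 28.7 and 112 CPM there.

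Along CD201 (the receptor encoded by Procr), the same 6 members rose. Hlf went from 253 CPM (177 to 475) in the lowest bin to 735 (666 to 834) in the highest, a change of 1.40 (SE 0.16, FDR 0.000104). Mllt3 went from 115 (82.9 to 152) to 316 (269 to 361), with a change of 1.38 (SE 0.09, FDR 7.50e-06), and Mecom from 342 (217 to 495) to 854 (739 to 932), with 1.31 (SE 0.14, FDR 6.99e-05). The end bins did not overlap for any of these 3 genes. Tal1 (1.06), Gata2 (1.03) and Meis1 (0.74) rose as well, with FDR of 0.000159 or lower, and all 6 genes were higher in the highest bin of all 6 libraries. Runx1 was called lower (-0.14, SE 0.04, FDR 0.0157), with medians of 596 and 578 CPM, and that call was lost when genes under 10 CPM were left out (-0.09, FDR 0.0503). Lyl1 (0.07, FDR 0.186) and Erg (-0.09, FDR 0.107) were not called. With genes of at least 10 CPM alone, Lyl1 was called (0.11, FDR 0.0496). With antibody UMIs divided by RNA UMIs, Lyl1 (0.14, FDR 0.00741) and Erg (0.14, FDR 0.0251) were called higher. Median RNA UMIs were 11288 to 12894 in the lowest CD201 bin and 9075 to 11645 in the highest. Between these bins the lymphoid list went from a median of 3403 to 1028 CPM, the cell-cycle list from 1327 to 609, the erythroid list from 459 to 1113, the megakaryocyte list from 55.0 to 176 and the stem list from 347 to 972, and their part in the changes along CD201 was not tested.

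Along CD150 (the receptor encoded by Slamf1) the stem set came apart, with Gata2 and Tal1 at one end and Hlf at the other. Gata2 went from 28.7 CPM (26.7 to 33.7) in the lowest bin to 112 (102 to 141) in the highest, a 3.08-fold to 4.70-fold difference within libraries and a change of 1.94 (SE 0.07, FDR 1.57e-07). Tal1 went from 43.1 (33.5 to 47.6) to 101 (78.1 to 112), a change of 1.22 (SE 0.05, FDR 3.05e-07), and Mllt3 from 135 (110.2 to 173) to 290.3 (251 to 348), a change of 1.05 (SE 0.07, FDR 4.33e-06). All 3 rose at every step in all 6 libraries, and their end bins did not overlap. Mecom rose by 0.63 (SE 0.07, FDR 6.61e-05) and Meis1 by 0.47 (SE 0.05, FDR 4.73e-05). Hlf stood at 451 CPM (389.8 to 676) in the lowest and 465 (405 to 593) in the highest bin, with a change of -0.04 (95% interval -0.21 to 0.14, FDR 0.735), and was higher in the highest bin of 4 of 6 libraries. With antibody UMIs divided by RNA UMIs, its difference was 0.46 (FDR 7.12e-05) instead. Runx1 (0.09, FDR 0.0225), Lyl1 (-0.15, FDR 0.00688) and Erg (-0.18, FDR 0.0486) were called with small changes. Among the alternatives, Erg kept the call in 4 of 15, Runx1 in 12 and Lyl1 in 13.

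Median RNA UMIs were alike over the CD150 bins, 10498 to 12243 in the lowest and 10843 to 12769 in the highest. Marker lists were not: the megakaryocyte list went from a median of 20.4 CPM (14.5 to 22.8) to 310.1 (256 to 715), the erythroid list from 479.6 to 1172 and the lymphoid list from 2459 to 858. The part of such cells in the rise of Gata2 and Tal1 was not tested. Of the 30 other factors, 15 were higher and 7 lower with CD150, including the erythroid and megakaryocyte factors Gata1 (4.28), Gfi1b (1.93) and Zfpm1 (1.61) and the stem cell genes Tcf15 (2.92) and Hoxb5 (2.55). With CD48, 6 were higher and 21 lower, including Hoxb5 (-3.75), Tcf15 (-3.62), Prdm16 (-1.92), Nkx2-3 (-1.90) and Lmo2 (-0.73), the bridging partner of Tal1 and Gata2. With CD201, 22 were higher and 5 lower, including Hoxb5 (2.48), Tcf15 (2.43) and Nfia (1.07) upward and Ikzf1 (-0.53), a lymphoid factor, downward. Some of these genes were low over all baseline cells. Genotype means were 2.15 to 3.08 CPM for Hoxb5, 8.39 to 10.7 for Tcf15 and 5.10 to 7.86 for Gata1.

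Both antibodies together gave a finer picture. Cells of each library were placed in 9 tiles, 3 levels of CD150 by 3 levels of CD48. At low CD48, Hlf had medians of 1038, 1033 and 709 CPM at low, middle and high CD150, so its highest median levels lay outside the CD150-high tile; the tiles were set on raw antibody UMIs, the scale on which Hlf did not rise along CD150. The ranges were 826 to 1113, 892 to 1104 and 644 to 777 CPM, and the CD150-high range did not overlap the other 2. Gata2 took the opposite course there, with medians of 51.5, 68.0 and 126 CPM, and Tal1 had 69.5, 85.6 and 114. Mecom was 923, 1006 and 1101 and Meis1 889, 889 and 951, with smaller steps whose ranges overlapped between neighbouring tiles. At high CD48, Hlf had medians of 246, 306 and 269 CPM and Gata2 ran from 18.7 to 29.5 at low and from 50.1 to 102 at high CD150, so Gata2 climbed with CD150 at low and at high CD48.

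Likeness of pattern was measured as Pearson's r of log2(CPM + 1) over the 54 tile sums of the 6 libraries, each gene centred within its library, as a description of points that share libraries and depth. Among members, Mecom and Meis1 were closest (0.98), followed by Gata2 and Tal1 (0.96), Mecom and Mllt3 (0.94), Meis1 and Mllt3 (0.94) and Mecom and Hlf (0.93). Hlf and Gata2, by contrast, had an r of 0.36, and Lyl1 was closest to Hlf (0.71) and to Erg (0.69). Runx1 had no member above 0.33. Over 8739 candidate genes, those most like each member were Samd12, Prdm16 and Myct1 for Mecom (0.985 to 0.991), Prkag2, Rab8b and Ldhb for Hlf (0.975 to 0.977), and Cpne8, Sgms1 and Nbea for Mllt3 (0.98 to 0.988). They were Plxnc1, Prkar2b and S100a1 for Gata2 (0.972 each), Sord, Plxnc1 and Shank3 for Tal1 (0.973 to 0.975), and Prdm16, Gulp1 and Samd12 for Meis1 (0.983 to 0.985). Gata2 and Tal1 thus had Plxnc1 in common, and Mecom and Meis1 had Samd12 and Prdm16 in common. For Lyl1 (Fam107b, 0.884), Erg (Camk2d, 0.863) and Runx1 (Dtnbp1, 0.722) the closest genes were less alike.

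Stem cells are usually enriched as CD150-high and CD48-low, so the next question was whether the members differ between that corner and its opposite, and whether genotype matters within it. The CD150-high CD48-low cells had higher levels of the same 6 members than the CD150-low CD48-high cells of their library, where 69.8% of all genes were called (35.0% higher). Gata2 stood at 126 CPM (119 to 143) against 18.7 to 29.5, a difference of 2.41 (SE 0.07, FDR 1.50e-09). Mllt3 stood at 393 (359 to 472) against 93.4 (65.3 to 132), with 2.00 (SE 0.10, FDR 4.22e-08), and Tal1 at 114 (98.2 to 122) against 32.9 (25.7 to 36.4), with 1.74 (SE 0.04, FDR 8.48e-10). The corners did not overlap for any of the 3 genes. Mecom (1.72), Hlf (1.40) and Meis1 (1.21) were higher too, while Lyl1 (0.05, interval -0.04 to 0.15), Runx1 (0.02, -0.10 to 0.14) and Erg (-0.02, -0.11 to 0.07) had 95% intervals that hold 0. With genes of at least 10 CPM alone, Lyl1 was called higher (0.13, FDR 0.0197). Of the 30 other factors, 21 were higher and 8 lower in the stem corner, among them Tcf15 (4.80), Hoxb5 (4.35) and Prdm16 (2.11) upward. Tcf15 and Hoxb5 were low over all baseline cells, as given above. Marker lists differed between the corners too, with medians of 282 CPM in the stem corner and 2339.6 in the opposite one for the lymphoid list, 452 and 1397 for the cell-cycle list, 945 and 327 for the erythroid list, 188 and 11.0 for the megakaryocyte list and 1319 and 331 for the stem list. Median RNA UMIs were 9398 to 11659 and 13628 to 17510. The part of these in the corner differences was not tested.

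Whether this corner difference changed with genotype was tested as an interaction, and no member was called in Ezh2 KO or in Jarid2 KO (0.314% and 0.0589% of all genes called). At an unadjusted p under 0.05 there were 1 and 3 members, against 7.2% and 5.7% of all genes, and DESeq2 called 0 and 1, against 0.366% and 0.150%. In Jarid2 KO the Hlf difference was smaller than in Control by a log2 value of -0.59 (SE 0.17, unadjusted p 0.00678, FDR 0.649). Hlf in the CD150-low CD48-high corner stood at 176 and 253 CPM for Control, 204 and 239 for Ezh2 KO, and 305 and 421 for Jarid2 KO, highest in both Jarid2 KO libraries. Runx1 showed the opposite sign (0.33, SE 0.07, unadjusted p 0.00114, FDR 0.332). Median CD48 UMIs in the CD150-low CD48-high corner were 2198 and 1554 for Control and 2581 and 2362 for Ezh2 KO. They were 1666 and 1334 for Jarid2 KO, and their part in these values was not tested.

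Within the CD150-high CD48-low cells, set within each library, no member was called against Control in Ezh2 KO (0.334% of all genes called) or Jarid2 KO (0.0477%). The counts at an unadjusted p under 0.05 were 1 and 3, against 10.3% and 7.72% of all genes, and DESeq2 called 0 and 1, against 0.729% and 0.388%. None was called between the knockouts either, where 0.702% of all genes were called, 6 members had an unadjusted p under 0.05 (14.1% of all genes), and DESeq2 called 3 (1.25% of all genes); this contrast was added after the values over all cells had been seen. Mllt3 stood there at 411 and 367 CPM for Control, 359 and 375 for Ezh2 KO, and 472 and 460.2 for Jarid2 KO, with Jarid2 KO above the other libraries. Its difference between the knockouts was 0.33 (SE 0.07, FDR 0.0821), beside 0.28 over all cells. Hlf stood at 719 and 699 CPM for Control, 644 and 676 for Ezh2 KO, and 777 and 775 for Jarid2 KO, in the same order as over all cells. The difference between the knockouts was smaller than over all cells for Hlf (0.22 against 0.52), Mecom (0.20 against 0.39), Tal1 (0.19 against 0.40) and Meis1 (0.07 against 0.28). A difference between these 2 sets of values was not tested.

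With the 3 levels set over the pooled libraries, the corner itself held different shares of cells: 17.4% and 21.3% for Control, 9.22% and 15.8% for Ezh2 KO, and 22.1% and 21.2% for Jarid2 KO. Even within the corner of each library, lymphoid markers summed to 798 and 274 CPM for Control, 389 and 291 for Ezh2 KO, and 81.1 and 65.6 for Jarid2 KO. Median CD48 UMIs there were 132 and 163 for Control, 232 and 205 for Ezh2 KO, and 106 and 111 for Jarid2 KO. The genotypes did not overlap, so this corner does not hold CD48 level equal between them. The part of the lymphoid markers and of CD48 level in the differences within the corner was not tested.

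**Figure D3:**
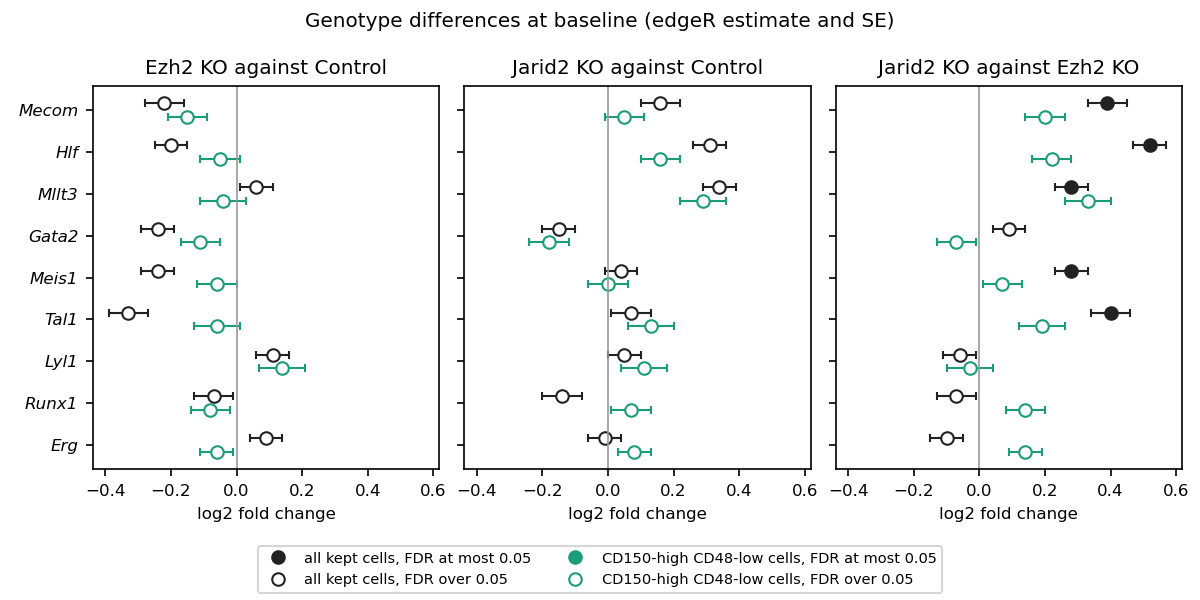
Log2 fold change (x axis) of each gene between genotypes at baseline, as edgeR estimates with SE bars, over all kept cells (black) and within CD150-high CD48-low cells (green); filled points have an FDR of at most 0.05. Filled points occur only over all cells between the knockouts (Mecom, Hlf, Mllt3, Meis1 and Tal1), and the Mllt3 estimate there is 0.28 over all cells and 0.33 within the corner.

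After transplantation, Mllt3 was highest in Ezh2 KO and not, as at baseline, in Jarid2 KO. The level was 19.4 CPM for Control, 32.1 and 40.0 for Ezh2 KO, and 17.7 and 18.9 for Jarid2 KO, from 1307 to 3572 UMIs. The Ezh2 KO libraries lay above all others, by 0.81 over Control (log2, SE 0.14, FDR 0.0248), and Jarid2 KO lay below Ezh2 KO by a log2 difference of -0.94 (SE 0.11, FDR 0.00365). The difference between the knockouts was called in all 12 alternatives (-0.81 to -1.06), among them male cells only (-0.95, FDR 0.00520). The call against Control was lost without Ezh2 KO replicate 2 (0.68, FDR 0.0777) and with the stricter cell filter (0.81, FDR 0.0806). The single Control library has no replicate, and its spread is taken from the knockout libraries.

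Meis1 fell in Ezh2 KO against Control, where Mllt3 and Meis1 were the 2 members called, beside 4.94% of all genes (3.45% higher, 1.49% lower). It stood at 100.1 CPM for Control, 66.3 and 74.7 for Ezh2 KO, and 87.1 and 92 for Jarid2 KO, with no overlap between the groups. The change in Ezh2 KO was -0.59 (SE 0.11, FDR 0.0390), and it was -0.21 (FDR 0.725) in Jarid2 KO. That call was lost without either Ezh2 KO library (FDR 0.229 and 0.136), with genes of at least 10 CPM alone (FDR 0.0792) and with the stricter cell filter (FDR 0.0967), always with the same sign. Among male cells alone both calls against Control held (Mllt3 0.86, FDR 0.0372; Meis1 -0.66, FDR 0.0402). Against Control, Jarid2 KO had no member called by edgeR, none at an unadjusted p under 0.05 and none by DESeq2. The shares of all genes were 0.369%, 8.41% and 2.14% in the same order.

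Between the transplant knockouts, Hlf was called as well as Mllt3, beside 12.3% of all genes (4.48% higher, 7.79% lower). Hlf stood at 105 CPM for Control, 90.5 and 99.7 for Ezh2 KO, and 123 and 125 for Jarid2 KO, the same order of genotypes as at baseline. The difference was 0.42 (SE 0.10, FDR 0.0459), and the call was lost among male cells alone (0.40, FDR 0.0734) and in 7 further alternatives of 12. Meis1 differed by 0.38 (SE 0.09, FDR 0.0511) and Erg, at 64.8 CPM for Control, 65 and 76.3 for Ezh2 KO, and 54.9 and 59.1 for Jarid2 KO, by -0.28 (SE 0.10, FDR 0.125). Mecom stood at 33.1 CPM for Control, 23.7 and 31.9 for Ezh2 KO, and 32.7 and 25.5 for Jarid2 KO, and the knockouts overlapped. Over the 5 libraries Gata2 ran from 57.3 to 67.8 CPM, Tal1 from 29.8 to 32.9, Lyl1 from 68.8 to 87 and Runx1 from 107 to 130, with overlapping knockouts for Gata2, Lyl1 and Runx1. None of these 5 genes was called in any of the 3 transplant comparisons.

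Of the 30 other factors, 5 were higher and 2 lower in transplant Ezh2 KO than in Control, including Mycn (2.03), Prdm16 (1.28), Hoxa10 (1.04), Nfia (0.91) and Gfi1b (0.84) upward and Hoxb5 (-2.22) downward. Jarid2 KO had Mycn (1.46, FDR 0.0124) and Prdm16 (1.17, FDR 0.0387) higher. These comparisons share the 1 Control library. Some levels were low: Hoxb5 stood at 1.84 CPM in Control and at a mean of 0.419 in Ezh2 KO. Prdm16 stood at 2.71 CPM in Control, with means of 6.96 in Ezh2 KO and 6.32 in Jarid2 KO. Lymphoid markers summed to 330.3 CPM for Control, 1278 and 1158 for Ezh2 KO, and 687 and 939 for Jarid2 KO, stem markers to 493, 304 and 312, and 381 and 302, and myeloid markers to 10690.0, 8135 and 8501, and 12767 and 16840.3. Erythroid markers summed to 227 CPM for Control, 373 and 412 for Ezh2 KO, and 186 and 188 for Jarid2 KO, the same order of groups as Mllt3, and megakaryocyte markers to 60.4, 65.2 and 56.2, and 37.2 and 30.0. Barcodes over the mitochondrial limit made up 43.4% for Control, 25.7% and 27.4% for Ezh2 KO, and 36.6% and 37.4% for Jarid2 KO, lowest in both Ezh2 KO libraries. Their part in the values of Mllt3, Meis1 and Hlf was not tested.

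The effect of genotype was then compared between the experiments as an interaction, over all 11 libraries and without a sex term. Between the knockouts, 1 of the 9 members was called, beside 2.31% of all genes (1.59% lower): the Jarid2 KO minus Ezh2 KO difference of Mllt3 was lower after transplantation than at baseline by a log2 value of -1.21 (SE 0.14, FDR 0.00572). The knockouts thus stood in opposite order in the 2 experiments, 209 and 225 against 166 and 187 CPM at baseline and 17.7 and 18.9 against 32.1 and 40.0 CPM after transplantation. This contrast was added after the opposite signs had been seen, and it was called in all 17 alternatives (-1.08 to -1.32). For Tal1 the same contrast gave -0.43 (SE 0.15, FDR 0.188). Against Control no member was called, beside 0.359% of all genes for Ezh2 KO and none for Jarid2 KO, although 2 and 1 members had an unadjusted p under 0.05, against 9.12% and 5.09% of all genes. Mllt3 had 0.75 (SE 0.16, FDR 0.118) for Ezh2 KO and -0.46 (SE 0.15, FDR 0.857) for Jarid2 KO, and DESeq2 called 1 member for Ezh2 KO and 0 for Jarid2 KO, against 2.07% and 0.412% of all genes. Of the 30 other factors, 5 were called in the knockout contrast, all lower: Nfia (-1.10), Mycn (-1.23), Nkx2-3 (-1.02), Prdm16 (-0.73) and Hoxa10 (-0.81).

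To see which cells of the gate carry each factor, cells of each library were ranked by the summed CPM of a marker list, and the top 5% were set against the rest; these classes are ranges of a score and not cell types, and no test was made. In the 5% of baseline cells richest in lymphoid markers, Mecom had a median of 0.0339 times the level of the other cells (0.0126 to 0.196 over 6 libraries), Gata2 0.0404, Hlf 0.0416, Tal1 0.0424 and Meis1 0.134. Gata2 stood at 1.04 to 4.09 CPM in those cells, against 50.0 to 73.5 CPM in the rest. The ratio was nearer 1 for Mllt3 (0.577), Lyl1 (0.775) and Runx1 (0.953). Erg was higher in the lymphoid-ranked cells of all 6 libraries, with a ratio of 1.21 to 4.10. In the cells richest in stem markers, Mllt3 had the highest ratio, 3.26 (2.95 to 3.73), followed by Mecom (2.12), Gata2 (2.05), Hlf (2.02), Tal1 (1.67) and Meis1 (1.45), while Runx1 (0.985) and Erg (1.03) were level. In the cells richest in megakaryocyte markers, Gata2 (2.82), Tal1 (1.96), Mllt3 (1.48), Runx1 (1.42) and Meis1 (1.40) were higher in all 6 libraries, and Hlf was lower in 5 of 6 (0.784). Erg (0.732) and Lyl1 (0.826) were lower there in all 6. Median RNA UMIs of the ranked cells differed from the rest, 7491 to 9205 against 10996 to 12967 for the stem list and 17009 to 21456 against 10525 to 12396 for the cell-cycle list.

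After transplantation the stem-ranked cells again had more of the first 6 members, with median ratios of 3.34 for Mecom, 3.61 for Hlf, 3.54 for Mllt3, 3.54 for Gata2, 2.68 for Meis1 and 2.00 for Tal1, each higher in all 5 libraries. Lyl1 (1.20), Runx1 (1.42) and Erg (1.37) were higher in all 5 as well. The same 6 genes were also higher in all 5 libraries in the cells richest in erythroid markers, with ratios of 3.56 for Mecom, 3.69 for Hlf, 2.89 for Mllt3, 2.81 for Gata2, 2.99 for Meis1 and 2.34 for Tal1, and in those richest in megakaryocyte markers, with ratios from 1.18 for Hlf to 4.05 for Gata2. In the cells richest in myeloid markers, Hlf (0.0687), Gata2 (0.0900), Meis1 (0.0922) and Mecom (0.103) had their lowest ratios, and Erg (0.297), Mllt3 (0.307), Tal1 (0.352) and Runx1 (0.404) were low as well. Gata2 was high in the cells richest in mast cell and basophil markers, at 218 to 327 CPM (median 237) against a median of 55.4 in the rest, a ratio of 3.90 to 5.90, and at a like level in those richest in megakaryocyte markers (226 to 281 CPM, median 236). In the mast cell and basophil range Mecom (0.381) and Hlf (0.242) were low and Runx1 (1.94) was high. Gata2 is known for a role in mast cells and basophils besides stem cells. Erg, with a ratio of 1.98, was higher in the cells richest in cell-cycle genes in all 5 libraries. Mecom (1.60), Hlf (1.80) and Meis1 (1.48) were higher there too, where at baseline they were lower (0.600, 0.562 and 0.614). Each ratio is taken against the rest of its library, and myeloid marker sums differed between the experiments. The part of that difference in the ratios was not tested.

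**Figure D4:**
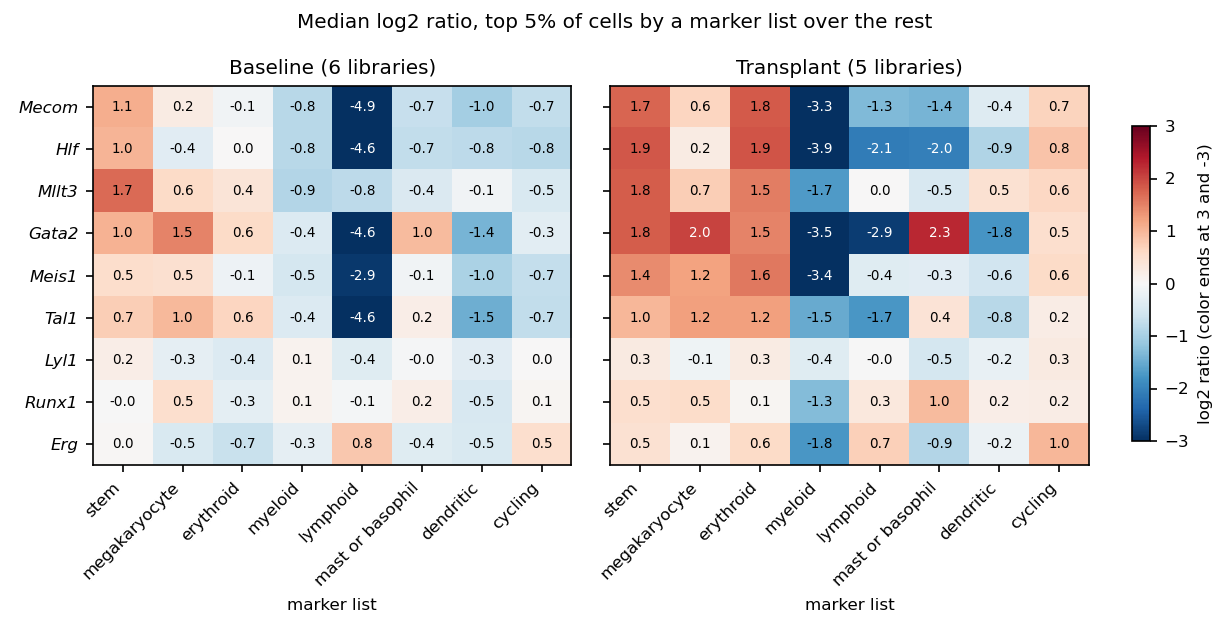
Median over libraries of the log2 ratio of each gene's level in the top 5% of cells ranked by a marker list over the rest of the library (color ends at 3 and -3), with baseline on the left and transplant on the right. Mecom, Hlf, Gata2 and Tal1 are lowest in the baseline lymphoid column (ratios of 0.0339 to 0.0424), and Gata2 has ratios of 4.83 in the transplant mast or basophil column and 4.05 in the megakaryocyte column.

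Levels differed between the experiments along with gene length, so no member's level is read as higher or lower in either. Mecom stood at a mean of 603 CPM in baseline Control and at 33.1 in transplant Control, a ratio of 18.2, while Gata2 stood at 66.0 and 65.8 and Lyl1 at 74.3 and 72.6. In RefSeq, Mecom spans 558 kb (chr3:29951296-30509759, GRCm38.p6), Gata2 13.1 kb and Lyl1 3.29 kb. Over 9144 genes matched to a span, of 9345 with at least 10 CPM in either Control (97.8%), the median log2 ratio of baseline to transplant Control, taken on CPM + 1, climbed from -0.23 for genes under 5 kb to 2.34 for genes over 200 kb. Mllt3 (263 kb, ratio 9.02), Runx1 (225 kb, 5.93) and Erg (227 kb, 3.54) lay between the quartiles of all genes of their span range, as did Gata2 and Lyl1. Mecom, Meis1 (139 kb, ratio 6.55), Hlf (54.4 kb, 4.75) and Tal1 (15.3 kb, 2.11) lay above the upper quartile of theirs. The experiments were counted with different software versions, the handling of intronic reads is not given in the sources used here, and its part in this relation was not tested. Genotype differences within an experiment compare libraries that share its scale. The contrasts between the experiments, that of Mllt3 included, set a difference on one scale against a difference on the other. The part of the scales in those contrasts was not tested.

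**Figure D5:**
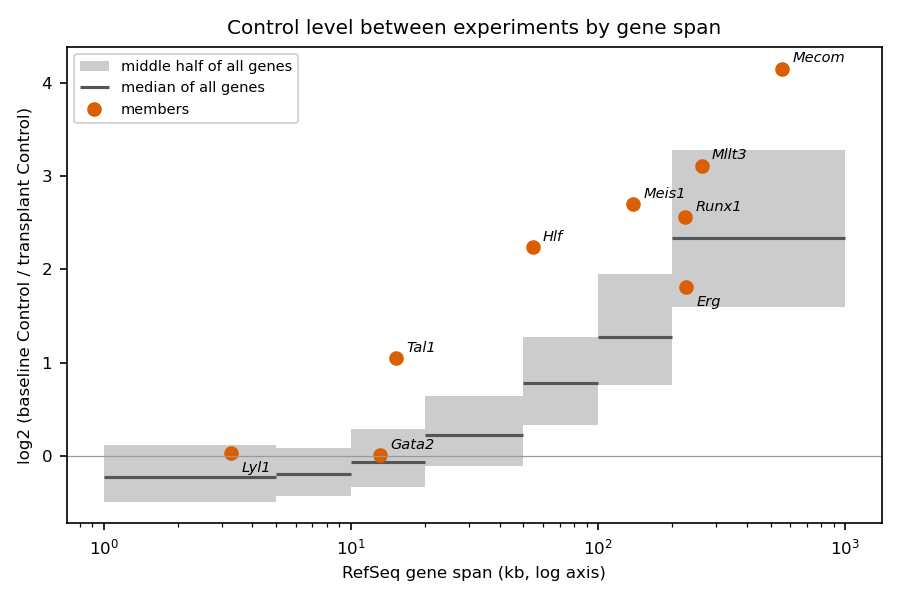
Log2 ratio of the mean baseline Control level to the transplant Control level, on CPM + 1 (y axis), against RefSeq gene span (kb, log axis); grey boxes run from the lower to the upper quartile of all genes in a span range, lines are their medians, and orange points are the 9 genes. The all-gene median climbs from -0.23 to 2.34, Gata2 and Lyl1 lie near 0, and Mecom lies highest at 4.15.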

How the data were processed

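Single-cell 3′ RNA libraries of KSL cells were used as the authors deposited them: filtered matrices of raw UMI counts per gene and cell, made with Cell Ranger 7.2.0 (baseline) and 6.1.2 (transplant), per the file headers. The submitters' processing notes name Cell Ranger 3.1.0, Seurat 3.0, Partek and the mm10 build; which annotation was used and whether intronic reads counted is not given in the sources used here. Antibody UMIs came from the same baseline matrices, with no other column of sample values, and 6 CUT&Tag samples were not analysed here. Cells with at least 1000 UMIs, at least 500 genes and at most 10% mitochondrial UMIs were kept. Scrublet's automatic threshold (scanpy 1.11.5) marked 2 to 211 cells per library, and therefore the top-scoring cells were taken out instead, 0.8% for every 1000 barcodes.

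Counts were summed per library, or per library and bin, and tested with edgeR 4.0.16 in R 4.3.3 (TMM scaling, its default filter on low counts, quasi-likelihood test, Benjamini-Hochberg FDR over all genes, called at 0.05), over all genotypes of an experiment, with sex as a term at baseline and the library as a block between bins. The contrast between experiments had genotype within experiment and no sex term. Replicate numbers mark sex at baseline, and same-numbered libraries deviated together (r of 0.71, 0.79 and 0.72); in the transplant experiment r was -0.01. DESeq2 1.42.0, no filter, a mean of at least 10 CPM, doublets kept, stricter cells (2000 UMIs, 1000 genes, 5% mitochondrial), male cells, other antibody scalings and bins, and leaving out each library were the alternatives. Within-corner and between-experiment contrasts of the knockouts and the view by gene span were added after seeing the data. The code was tested on simulated data. Members, lists and marker genes were chosen with earlier results of these data known. The text names the 9 members, Jarid2 and Ezh2, up to 6 genes with the lowest FDR per comparison from a list of 30 other factors, and the 3 genes most like each member. Values of 1 of the 30 other factors are not reported here. Where labels do not name separate animals, p-values measure the spread between libraries alone.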

Additional observations from a re-analysis of the deposited data

Results flagged for a closer look

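Along CD150, the Meis1 log2 ratio of the highest to the lowest bin was 0.19 in baseline Jarid2 KO replicate 2, while the other 5 libraries lay between 0.54 and 0.62. It was the only value flagged as outlying in 36 groups of 6 libraries, and these groups share their libraries. The same library also had the lowest fold ratio along CD150 for Mecom (1.21), Hlf (0.720), Mllt3 (1.79), Gata2 (3.08), Lyl1 (0.853) and Erg (0.778). Along CD201 it had the lowest for Mecom (1.58), Hlf (1.49), Meis1 (1.24), Mllt3 (2.18), Lyl1 (0.956) and Erg (0.912). Gata2 had a ratio of 1.58 there, as in Control replicate 2. For Tal1 and Runx1 its ratio was not the lowest along either antibody. The transplant matrices also list the antibodies, although no staining is labelled for them, and held 225 antibody UMIs for Control, 269 and 366 for Ezh2 KO, and 272 and 313 for Jarid2 KO, against 14330271 to 25234137 per baseline library. Several differences had opposite signs in every library of the 2 experiments. Those against Control rest on the single transplant Control library and can be small. Mecom in transplant Jarid2 KO replicate 1 was nearly level with that Control. Between the knockouts the contrast of the experiments was -1.21 for Mllt3 (edgeR FDR 0.00572) and -0.43 for Tal1 (FDR 0.188). Against Control it was 0.10 for Runx1 in Ezh2 KO (FDR 0.911), and in Jarid2 KO -0.37 for Mecom (FDR 0.988), -0.46 for Mllt3 (FDR 0.857) and 0.25 for Runx1 (FDR 0.988). Of these 6 contrasts, the Mllt3 value between the knockouts passed the threshold.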

How the results depend on the processing

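Of 246 counts of members called under alternatives, 212 stayed within 1.5 times the reported count. These include counts of 0 that stayed at 0. Between the transplant knockouts, 1 of 7 alternatives other than leaving out a library stayed within that limit. With DESeq2 the count went from 0 to 5 for baseline Ezh2 KO (12.5% of all genes entered called by DESeq2) and from 0 to 2 for baseline Jarid2 KO (3.11%) against Control, from 2 to 4 between the transplant knockouts (16.9%), from 0 to 1 for the experiment difference of Ezh2 KO (2.07%), from 0 to 1 for the corner difference of Jarid2 KO (0.150%), and within the corner from 0 to 1 for Jarid2 KO against Control (0.388%) and from 0 to 3 between the knockouts (1.25%). Without a filter on low counts it went from 0 to 1 for baseline Ezh2 KO (4.19% of all genes), from 0 to 2 for the corner difference of Jarid2 KO (0.291%) and from 0 to 1 within the corner between the knockouts (1.61%), and with doublets kept from 0 to 1 for baseline Ezh2 KO (3.71%). For transplant Ezh2 KO against Control the 2 calls became 1 with genes of at least 10 CPM (2.01%) and 0 with stricter cells (2.96%). Between the transplant knockouts the 2 calls became 1 with genes of at least 10 CPM (5.41%), with doublets kept (12.7%), with stricter cells (8.32%), with male cells alone (8.51%) and with a replicate block over the 4 knockout libraries (9.58%), where Hlf lost its call (FDR 0.0812). At baseline the replicate number is the sex, and without that replicate block the 5 calls between the knockouts became 1 (0.445% of all genes). Leaving out 1 library can leave a group with 1 sample, and the share of all genes called then moved as well. Calls of members changed in Ezh2 KO against Control and between the knockouts, in both experiments. Within the corner they changed for Jarid2 KO against Control and between the knockouts. Without transplant Ezh2 KO replicate 1 and then 2, Meis1 differed from Control by -0.54 and -0.64. Hlf then differed between the knockouts by 0.38 and 0.45. Without baseline Ezh2 KO replicate 1 and then 2, Mllt3 differed between the knockouts within the corner by 0.25 and 0.40. Without the transplant Control no comparison with Control can be made. With antibody UMIs divided by RNA UMIs, the sign turned for Hlf (0.46) and Erg (0.01) along CD150 and for Erg along CD201 (0.14); the cause was not tested. The CD48, CD201 and corner calls of Mecom, Hlf, Mllt3, Gata2, Meis1 and Tal1 held in every alternative run. With 2 libraries a group an exact two-sided test of one gene cannot go below p = 0.333, so the calls rest on the spread edgeR shares across genes.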
